A study of Rattus norvegicus with 4 samples.

Results

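The genes described here form the core machinery of cell division. They are cyclins, cyclin-dependent kinases, kinase inhibitors with the RB-E2F switch, replication and nucleotide supply genes, and mitotic genes. Members were the non-control probes whose gene name in the scanner files matched 1 of 49 listed symbols or an older symbol of one. Of the 49 genes, 47 had a probe, with 74 probes and 92 spots in all, among 35668 genes and unnamed transcripts on the array. Mki67 and Mcm3 had no probe under these names. Aurka was found under its older name Stk6 and Cdk1 under Cdc2a.

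The cells were peritubular myoid cells, the contractile cells around the seminiferous tubule, isolated from the testes of male rats aged 40 days. All cultures were kept for 4 days in a mixture of DMEM and Ham F-12 to which defined growth factors had been added. The testosterone group received 1e-07 M of the hormone in pulses, and the control group is labelled only as control. Each group had 2 one-colour arrays, numbered 1 and 2 in the sample titles. The labels do not say what the numbers mark, nor whether a replicate is a culture or an animal of its own. Any p-value below therefore reflects the spread of these 4 arrays alone, and that spread may be technical. All 4 arrays lay on 1 slide, the number 2 arrays at positions 1 and 2 and the number 1 arrays at positions 3 and 4, so number and slide position cannot be told apart. The 2 questions asked here are how the division genes differed between testosterone and control, and how they differed between the arrays numbered 2 and those numbered 1.

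Cyclins rise and fall through the cell cycle and switch on the cyclin-dependent kinases, which the CIP/KIP and INK4 inhibitors hold back. Active G1 kinases phosphorylate RB and release E2F, which turns on the S-phase genes for DNA replication and nucleotide supply. The mitotic genes peak later, in G2 and M, under the DREAM and MuvB complexes, which act through the promoter element called CHR. In the adult testis peritubular myoid cells divide little, whereas isolation and culture with growth factors can bring somatic testis cells back into cycle, and the germ line holds most of the dividing cells of the organ.

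Levels are log2 processed signals relative to the 75th percentile of each array, so a level of 0 lies at that percentile, and levels of different probes are not set against each other. A gene was tested when its probe was well above background on at least 2 of the 4 arrays, and its brightest probe stood for it. Of the 47 members, 43 were tested, 40 of them well above background on all 4 arrays. The probes of Cdc6, which loads the replicative helicase, Cenpf, a kinetochore protein, Kif11, the spindle motor Eg5, and Prc1, an organiser of the central spindle, were not well above background on any array. "Apart" means that both arrays of one kind lay above, or below, both arrays of the other. Intervals in brackets are 95% intervals from limma. With 2 arrays against 2, an exact 2-sided permutation test cannot give a p under 0.333.

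The labelled cell type was checked against its markers. Of the 11 peritubular and smooth muscle markers listed, 9 had a probe and 7 were well above background on all 4 arrays, including Actg2, Des, Myl9 and Tpm2. Acta2 and Myh11 had no probe under these names. Between 63.5% and 68.2% of spots on an array were well above background. On control replicate 1, 159 spots read over 3 log2 units below the median of the other 3 arrays, 152 of them in columns 57 to 85 of the array. The other arrays had 3 to 27 such spots. Those columns hold 33.9% of the spots, and members with a probe there are named where it bears on a value.

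No division gene was called with testosterone, and 1 gene, Rrm2, was called between the array numbers. For testosterone against control, limma called 0 of 23149 genes in either direction at an adjusted p under 0.05, a background of 0%. At an unadjusted p under 0.05 it had 157 genes (0.445% positive and 0.233% negative), and 0 of them were members. Apart and higher with testosterone were 3 members, Cdkn2b, Mcm5 and Tk1, and apart and lower were 3, Ccnd3, Cdkn1a and E2f1. Over all genes tested the shares were 5.78% above and 8.68% below, so 3 of 43 either way is close to the background. At least 2-fold apart were 0 members, where the background is 0.540% higher and 0.143% lower. The members had 20 positive and 23 negative differences, with a median of -0.04 against -0.01 over all genes. The median half-width of their intervals, which are not adjusted for the number of genes, was 0.86 on the log2 scale. This fit has no term for the array number, so the difference between numbers adds to that width. In the fit with both terms the median half-width of the members' number differences was 0.47. Changes smaller than these widths were not resolved by the fit in question.

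Between the arrays numbered 2 and those numbered 1, more of the division genes were apart than with testosterone, as were more of all genes tested. Both number 2 arrays lay above both number 1 arrays for 19 members and below them for 12, with 12 overlapping. Of the 19, Ccnb2 passed the filter only through the number 2 arrays. Over all genes tested the shares were 40.1% above and 24.0% below, against 44.2% and 27.9% of the members. At least 2-fold higher and apart were 6 members, Cdk1, Rrm2, Ube2c, Cdk6, Top2a and Ccna2, where the background is 6.67%. Cdk1 is among the 6 through a dropped reading on control replicate 1. In the testosterone pair, which that reading does not enter, Cdk1 differed by 0.72 between numbers, under 2-fold. At least 2-fold lower and apart was 1, Cdc25b, where the background is 1.04%. At an unadjusted p under 0.05 in limma there were 18 members, 13 higher and 5 lower, which is 41.9% of them against 23.9% of all genes (16.8% higher and 7.03% lower). The 13 include Ccnb2, which passed the filter only through number 2. At an adjusted p under 0.05, limma called 152 genes higher (0.657%) and 9 lower (0.0389%), among them 1 member. With median scaling, the authors' deposited values or no filter on dim probes it called 0 genes in either direction. The median difference of the members was 0.13, against 0.10 over all genes, and 22 members lay above and 21 below that median of all genes.

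The split of all genes by direction depends on the scaling. Of the genes apart between the numbers, 62.6% were higher on number 2 with the 75th percentile, 36.5% with each array's median, 46.1% with normexp and quantile normalization and 64.8% with the authors' deposited values. With median scaling the median of all genes moved from 0.10 to -0.10, and 19 instead of 25 members had a positive difference. The members whose sign then changed were Ccnd3, Cdkn2b, E2f1, Cdc20, Plk1 and Bub1, and Tk1 changed sign with normexp and quantile normalization. Their differences with the 75th percentile lay between 0.02 and 0.36.

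**Figure D1:**
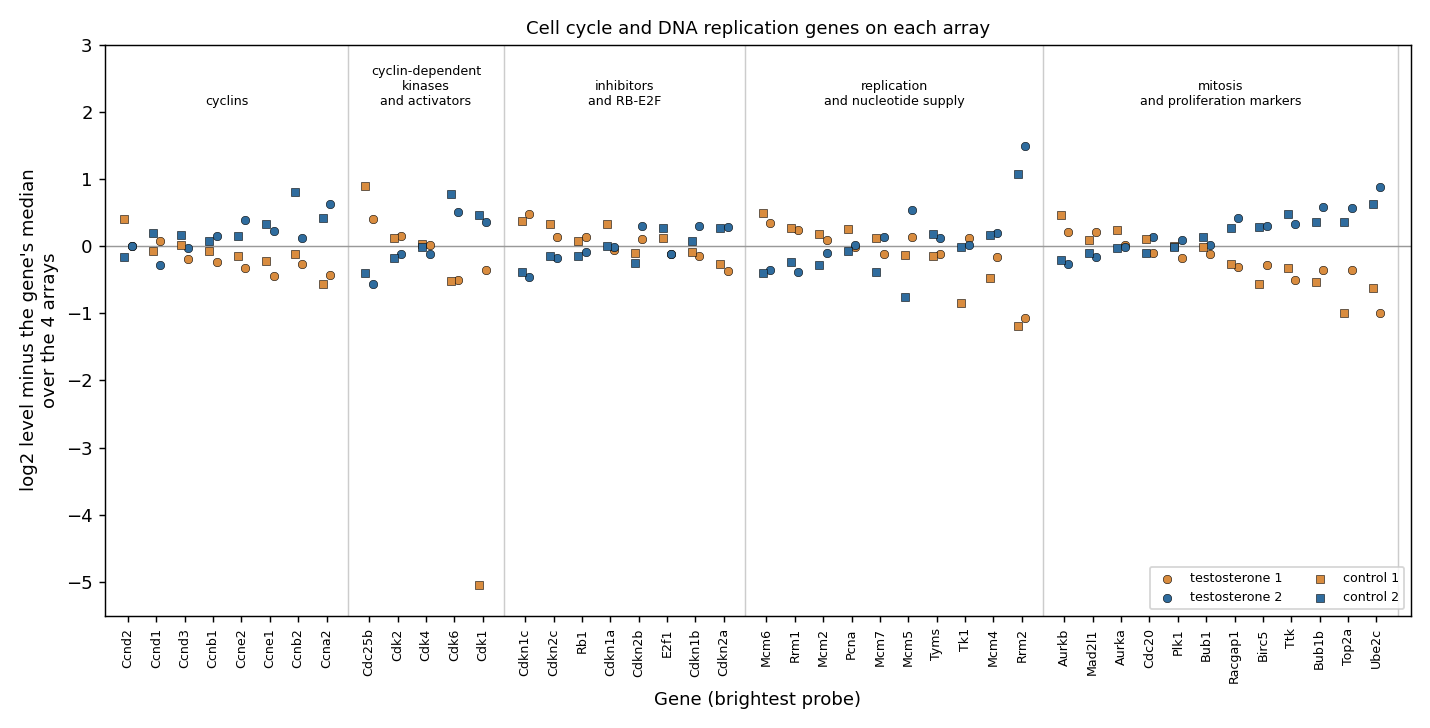
Level of each tested division gene on each array minus the median of that gene over the 4 arrays, in log2 units, with genes grouped by role. Circles are testosterone and squares control, orange number 1 and blue number 2. For Cdk1 control replicate 1 (-5.64 as a level, where the other arrays lie between -0.95 and -0.13) falls far below the rest, and for Rrm2 both blue points lie above both orange ones.

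Of 8 cyclins tested, 5 were apart and higher on number 2 and 0 lower, where all genes gave 40.1% and 24.0%, and their median difference was 0.39. Ccnb2 passed the filter only through the number 2 arrays, and without it the count is 4 of 7 and the median 0.27. Relative to the median of all genes, the median of the 8 was 0.29, also 0.29 with median scaling and 0.08 with normexp and quantile normalization. With median scaling 3 were apart and higher and 1 lower, where all genes gave 23.2% and 40.4%. Normexp and quantile normalization also gave 3 and 1, where all genes gave 28.1% and 32.8%. Ccna2, cyclin A2, the partner of Cdk2 in S phase, read -3.50 and -3.64 on testosterone and control replicate 1 and -2.46 and -2.65 on replicate 2. Both number 2 arrays were high and the groups did not overlap. The difference was 1.01 (0.59 to 1.44), with an adjusted p of 0.0919 in limma. Ccne1, cyclin E1, which drives entry into S phase, read 0.66 and 0.88 on number 1 and 1.32 and 1.43 on number 2, a difference of 0.60 (0.17 to 1.04). Its other probe differed by 0.22, with -3.88 and -4.20 on number 1 and -3.97 and -3.68 on number 2, so those arrays overlapped. Its relative Ccne2 differed by 0.51.

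The mitotic cyclins gave differences of unlike size. Ccnb1, cyclin B1, which brings Cdk1 into mitosis, read -2.15 and -1.99 on number 1 and -1.77 and -1.84 on number 2, and differed by 0.27 (-0.19 to 0.73). Ccnb2 was not well above background on either number 1 array, and its readings put number 2 at least 1.502-fold higher. For that bound a dim reading was raised to the lowest level at which a spot on its array counted as well above background. The bound takes no account of the spread between arrays, so it is not a limit on the true difference. The fitted difference of Ccnb2, 0.67 (0.07 to 1.26), had an adjusted p of 0.184 in limma and fell to 0.06 among the alternatives with all 4 arrays.

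The D-type cyclins, which link growth signals to the G1 kinases, overlapped between the numbers. Ccnd1 read -0.46 and -0.81 with testosterone and -0.60 and -0.34 in control. Its difference was -0.05 (-0.68 to 0.59) between numbers and -0.17 (-0.82 to 0.48) with testosterone, and its other probe gave -0.01 and -0.12. Ccnd2 read -0.99 and -0.98 with testosterone and -0.59 and -1.15 in control, a difference of -0.12 (-0.84 to 0.61). Ccnd3 read -0.41 and -0.24 with testosterone and -0.20 and -0.06 in control, so both testosterone arrays lay below both controls. The difference was -0.20, its interval from -0.73 to 0.34 includes 0, and the file places this probe on chromosome 8 while the reference table has Ccnd3 on chromosome 9.

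Among the kinases and their activators, 2 of 5 were apart and higher on number 2 and 3 were apart and lower, where all genes gave 40.1% and 24.0%. Cdk6, a D-cyclin kinase, read -5.08 and -5.09 on number 1 and -4.06 and -3.79 on number 2. The pairs did not overlap, and the difference was 1.16 (0.68 to 1.64; adjusted p = 0.0910 in limma). Cdk4, the other D-cyclin kinase, was bright and nearly level, at 3.59 and 3.61 on number 1 and 3.46 and 3.56 on number 2, and differed by -0.09 (-0.52 to 0.34). Cdk2, the cyclin E and A kinase, differed by -0.29 (-0.71 to 0.14), and its other probe by -1.15.

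Cdk1, the mitotic kinase, rested on 1 spot. It read -0.95 and -0.23 with testosterone, -5.64 on control replicate 1 and -0.13 on control replicate 2. Control replicate 1 was not well above background, was among the spots counted above as far below the other arrays and lay in columns 57 to 85. The fitted differences of 3.11 between numbers (-0.58 to 6.81) and 2.30 with testosterone (-3.06 to 7.65) both rest on that reading. Without it, the testosterone arrays differed by 0.72 between numbers, and on number 2 testosterone differed from control by -0.10.

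Cdc25b, the phosphatase that activates Cdk1 before mitosis, had the largest negative difference between the numbers. It read -1.50 and -1.001 on number 1 and -2.47 and -2.30 on number 2, with no overlap. The level was 2.20-fold lower on number 2, a difference of -1.14 (-1.63 to -0.64; adjusted p = 0.0948 in limma). Its probe lay in columns 57 to 85, where control replicate 1 was the highest of the 4 arrays. With testosterone it differed by -0.33 (-1.96 to 1.31).

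The kinase inhibitors did not move one way. Of the 8 inhibitor and RB-E2F genes, 2 were apart and higher on number 2 and 3 apart and lower, with a median of -0.06. All genes gave 40.1% and 24.0%. Cdkn1c, which encodes p57, an imprinted CIP/KIP inhibitor, read 4.40 and 4.29 on number 1 and 3.46 and 3.53 on number 2. It was 1.80-fold lower, a difference of -0.85 (-1.30 to -0.40; adjusted p = 0.113 in limma). All 4 of its probes were apart in the same direction, with differences from -1.28 to -0.85. With testosterone the brightest probe differed by 0.01 (-1.25 to 1.27).

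Cdkn2a, the INK4A and ARF locus, went the other way. It read 1.30 and 1.40 on number 1 and 1.95 and 1.93 on number 2, 1.51-fold higher, with a difference of 0.59 (0.16 to 1.03; adjusted p = 0.151 in limma). With testosterone it differed by -0.04 (-0.99 to 0.90). Cdkn1b, p27, read 1.80 and 1.87 on number 1 and 2.25 and 2.03 on number 2, a difference of 0.31 (-0.17 to 0.79), and 0.68 with its other probe. Cdkn2c, p18, read -0.61 and -0.42 on number 1 and -0.92 and -0.89 on number 2, a difference of -0.39 (-0.83 to 0.05).

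A further pair of inhibitors parted with testosterone and overlapped between the numbers. Cdkn2b, p15, read -1.17 and -0.98 with testosterone and -1.38 and -1.53 in control. The difference was 0.38 (-0.16 to 0.93), at 0.21 on number 1 and 0.55 on number 2. Cdkn1a, p21, the p53-induced inhibitor, read 2.12 and 2.17 with testosterone and 2.52 and 2.19 in control. Testosterone differed from control by -0.39 on number 1 and by -0.02 on number 2. The difference of -0.20 (-0.79 to 0.38) was 0.03 with its other probe. Between numbers those probes also had opposite signs, -0.14 and 0.46.

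Of the RB-E2F switch, Rb1 was apart between the numbers and E2f1 with testosterone, both with intervals that include 0. Rb1, the retinoblastoma protein gene, read 1.39 and 1.33 on number 1 and 1.16 and 1.10 on number 2, a difference of -0.23 (-0.65 to 0.19), and differed by 0.06 with testosterone. E2f1, the activating E2F, read -0.36 and -0.36 with testosterone and -0.12 and 0.04 in control. Its arrays were apart, with a difference of -0.32 (-0.83 to 0.20), at -0.24 on number 1 and -0.40 on number 2. Between the numbers E2f1 overlapped and differed by 0.08.

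**Figure D2:**
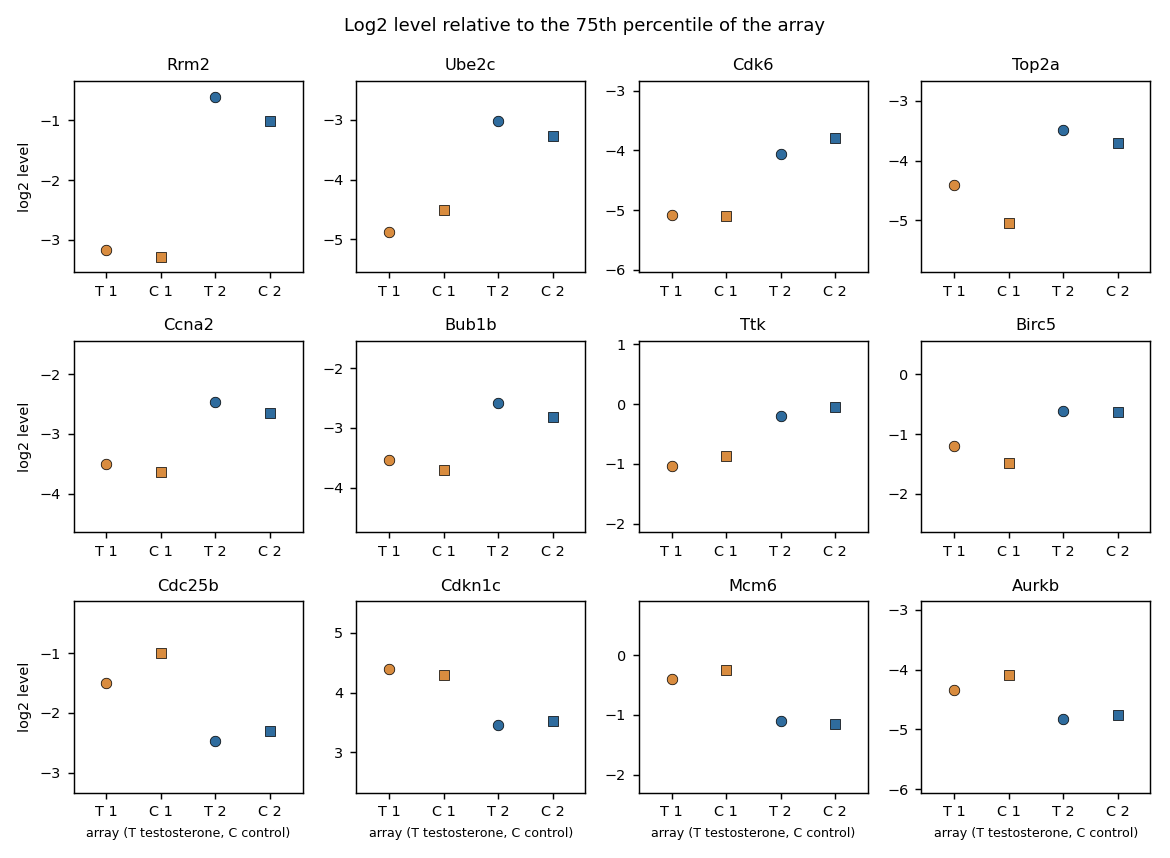
Levels of 12 division genes chosen for their number difference, 1 point an array, in log2 units relative to the 75th percentile of the array, with circles for testosterone, squares for control, orange for number 1 and blue for number 2. The first 8 genes are higher on both number 2 arrays, by 2.42 for Rrm2 to 0.71 for Birc5, and the last 4 are lower, by -1.14 for Cdc25b to -0.58 for Aurkb.

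In replication and nucleotide supply, 3 of 10 tested genes were apart and higher on number 2 and 3 apart and lower (median -0.12). All genes gave 40.1% and 24.0%, and relative to the median of all genes the median of the 10 was -0.21. Rrm2, the small subunit of ribonucleotide reductase, which makes the building blocks of DNA and peaks in S phase, read -3.17 and -3.28 on number 1 and -0.60 and -1.02 on number 2. Both number 2 arrays were far above both number 1 arrays. It rose 5.34-fold, a difference of 2.42 (1.93 to 2.90), the only member called (adjusted p = 0.0467 in limma), and its second probe differed by 2.19. The testosterone arrays differed by 2.57 between numbers and the control arrays by 2.26, whereas testosterone and control differed by 0.26 (-3.06 to 3.58).

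The call of Rrm2 stood close to the threshold. Its adjusted p in limma was 0.0652 with median scaling, 0.0553 with the authors' deposited values, 0.0601 with the mean over its probes and 0.297 with no filter on dim probes. With normexp and quantile normalization its difference was 1.52, still called at 0.0478. Over all alternatives with a test its adjusted p in limma ran from 0.0114 to 0.297. With no testosterone term and 1 array left out, it was 0.125 without testosterone replicate 2 and 0.0919 without control replicate 2. The position of its brightest probe is chr6:42357945-42358004 in rn4. Rrm1, the large subunit of the same enzyme, did not follow. It read -0.04 and -0.00 on number 1 and -0.66 and -0.52 on number 2, a difference of -0.57 (-0.999 to -0.14; adjusted p = 0.158 in limma), and its other probes gave -0.45 and -0.06.

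The MCM genes encode the replicative helicase. Mcm6 read -0.39 and -0.26 on number 1 and -1.09 and -1.15 on number 2, with no overlap, 1.74-fold lower at a difference of -0.80 (-1.24 to -0.35; adjusted p = 0.120 in limma). Mcm2 read 0.50 and 0.58 on number 1 and 0.30 and 0.12 on number 2, a difference of -0.33 (-0.80 to 0.14), and -0.76 with its other probe. Mcm4 was dim, and its probes gave 0.50 and -0.36. Mcm7 differed by -0.12 and its arrays overlapped.

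Mcm5 had the largest testosterone difference among the members apart in that comparison. It read -4.15 and -3.74 with testosterone and -4.41 and -5.03 in control. The difference was 0.78 (-0.09 to 1.64), at 0.26 on number 1 and 1.29 on number 2. Tk1, thymidine kinase, read -4.15 and -4.25 with testosterone and -5.11 and -4.28 in control, which gives 0.96 on number 1, 0.03 on number 2 and a difference of 0.50 (-0.44 to 1.44). The file places that Tk1 probe on chromosome 3 and the reference table has Tk1 on chromosome 10, so its identity is uncertain. The probe also lies in columns 57 to 85, and control replicate 1 was the low array.

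Pcna, the sliding clamp of DNA polymerase, was among the bright members and overlapped in both comparisons. It read 2.87 and 2.91 with testosterone and 3.14 and 2.82 in control, a difference of -0.09 (-0.67 to 0.49) with testosterone and -0.14 (-0.65 to 0.37) between numbers. Tyms, thymidylate synthase, was apart and higher on number 2 by 0.29 (-0.14 to 0.72).

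Of 12 mitotic genes tested, 7 were apart and higher on number 2 and 3 apart and lower, where all genes gave 40.1% and 24.0%. Relative to the median of all genes, their median difference was 0.29, also 0.29 with median scaling and 0.16 with normexp and quantile normalization. Ube2c, the ubiquitin-conjugating enzyme of the anaphase-promoting complex, read -4.88 and -4.51 on number 1 and -3.02 and -3.27 on number 2. It was 2.94-fold higher, a difference of 1.55 (0.92 to 2.19; adjusted p = 0.0908 in limma), and its probe lay in columns 57 to 85. Top2a, topoisomerase II alpha, which untangles sister chromatids, read -4.41 and -5.05 on number 1 and -3.49 and -3.70 on number 2. It was 2.20-fold higher, with a difference of 1.14 (0.60 to 1.67; adjusted p = 0.101 in limma).

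Spindle checkpoint kinases showed the same order of arrays. Bub1b, BUBR1, read -3.54 and -3.71 on number 1 and -2.59 and -2.82 on number 2, a difference of 0.92 (0.49 to 1.35), and its second tested probe gave 0.66. Ttk, the MPS1 kinase, read -1.04 and -0.87 on number 1 and -0.20 and -0.05 on number 2, a difference of 0.83 (0.40 to 1.25), and 1.11 with its other probe. Birc5, survivin, of the chromosomal passenger complex, differed by 0.71 (0.24 to 1.18). None of these passed the test.

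Other mitotic members were lower or overlapped. Aurkb, the kinase partner of survivin, read -4.35 and -4.09 on number 1 and -4.83 and -4.76 on number 2, so it was lower, by -0.58 (-1.02 to -0.13; adjusted p = 0.161 in limma). Mad2l1, a spindle checkpoint protein, was apart and lower by -0.28, and Aurka, the centrosomal aurora kinase, by -0.15. Cdc20, an activator of the anaphase-promoting complex, and Plk1, polo-like kinase, overlapped, at 0.02 and 0.13. Bub1 differed by 0.14 and was apart and higher, except with median scaling, where its sign was negative. Racgap1, a cytokinesis regulator, gave 0.64 and 0.78 with a pair of probes and -0.50 with another that was well above background on 2 arrays and differed by 2.78 with testosterone. That probe lies in columns 57 to 85 and read -7.72 on control replicate 1.

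**Figure D3:**
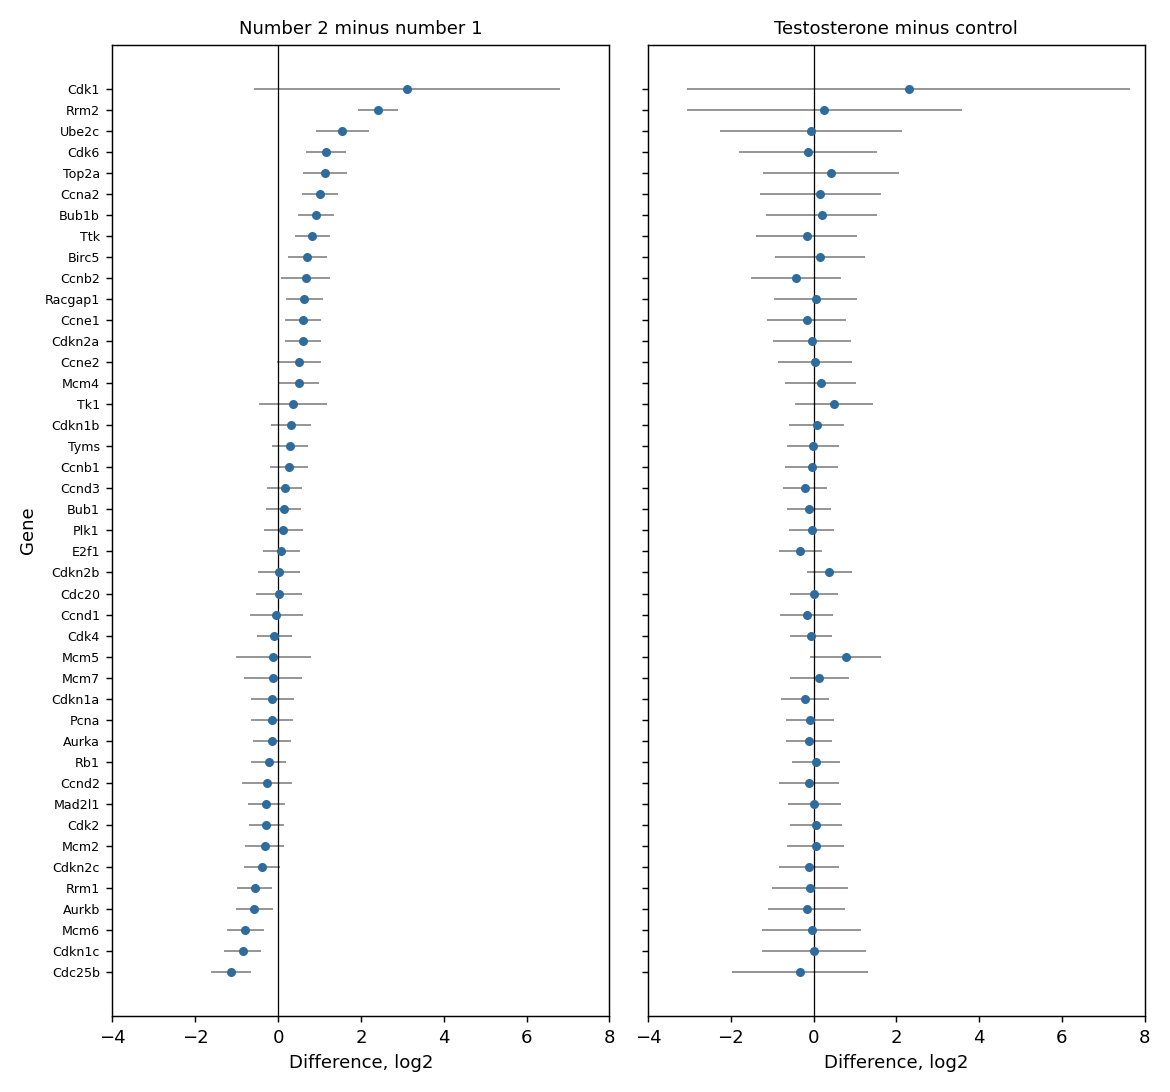
Difference between number 2 and number 1 (left) and between testosterone and control (right) for each tested division gene, in log2 units with points for the difference and bars for 95% intervals from limma. Rrm2 at 2.42 is the only called gene, Cdk1 has the widest intervals, and every testosterone interval includes 0.

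The promoters of 36 members were matched in the RefSeq promoter table of assembly GRCr8, each 300 bases long from 250 before to 50 after the gene's start. They are shown for the 4 members with an entry that were highest on number 2 and apart, Cdk1 (chr20:19265043-19265342, plus strand), Top2a (chr10:84473044-84473343, minus strand), Bub1b (chr3:126016817-126017116, plus strand) and Ttk (chr8:93634389-93634688, plus strand). The choice went by the number difference, not by cell cycle phase, and Rrm2, Ube2c, Cdk6 and Ccna2 had no entry. Cdk1 belongs here by its value on all 4 arrays, which the dropped reading enlarged. Capitals mark matches to the CHR letters (TTTGAA, or TTCAAA on the other strand), to CCAAT (or ATTGG), and to 4 E2F words, TTTCGCGC, TTTGGCGC, TTTCCCGC and TTTGCCGC, or their reverse complements. Each is written 5′ to 3′ on the strand of the gene.
Cdk1: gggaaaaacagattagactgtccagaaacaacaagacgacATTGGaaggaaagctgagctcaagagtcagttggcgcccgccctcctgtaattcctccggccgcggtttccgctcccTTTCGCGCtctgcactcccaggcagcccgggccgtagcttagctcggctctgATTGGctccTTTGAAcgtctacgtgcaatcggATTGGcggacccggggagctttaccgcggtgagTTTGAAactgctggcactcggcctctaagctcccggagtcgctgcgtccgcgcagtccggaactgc
Top2a: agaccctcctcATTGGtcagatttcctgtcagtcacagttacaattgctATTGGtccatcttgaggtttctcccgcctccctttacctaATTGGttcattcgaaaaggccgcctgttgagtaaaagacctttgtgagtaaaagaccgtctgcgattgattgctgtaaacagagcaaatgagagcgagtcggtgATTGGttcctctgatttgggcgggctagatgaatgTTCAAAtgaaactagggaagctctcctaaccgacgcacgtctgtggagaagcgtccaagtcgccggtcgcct
Bub1b: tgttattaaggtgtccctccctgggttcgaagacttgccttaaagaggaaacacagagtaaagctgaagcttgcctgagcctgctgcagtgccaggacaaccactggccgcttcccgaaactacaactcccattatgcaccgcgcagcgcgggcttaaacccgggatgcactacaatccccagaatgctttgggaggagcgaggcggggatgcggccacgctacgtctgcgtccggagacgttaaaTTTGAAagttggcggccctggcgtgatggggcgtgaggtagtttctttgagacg
Ttk: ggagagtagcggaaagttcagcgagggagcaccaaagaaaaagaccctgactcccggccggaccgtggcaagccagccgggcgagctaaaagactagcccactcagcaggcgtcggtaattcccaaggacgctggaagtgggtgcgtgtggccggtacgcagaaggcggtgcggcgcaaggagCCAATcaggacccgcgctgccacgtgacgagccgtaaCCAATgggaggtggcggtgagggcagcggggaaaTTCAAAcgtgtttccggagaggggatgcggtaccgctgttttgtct

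For contrast, the promoters of the 2 lowest members with an entry, Cdc25b (chr3:138859923-138860222, plus strand) and Mcm6 (chr13:42404303-42404602, minus strand), are given in the same form.
Cdc25b: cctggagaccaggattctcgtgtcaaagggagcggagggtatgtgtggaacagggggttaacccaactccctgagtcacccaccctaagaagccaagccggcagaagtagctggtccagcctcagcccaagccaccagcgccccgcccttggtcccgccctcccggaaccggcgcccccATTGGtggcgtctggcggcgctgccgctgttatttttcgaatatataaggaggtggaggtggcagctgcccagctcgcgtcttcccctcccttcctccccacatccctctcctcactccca
Mcm6: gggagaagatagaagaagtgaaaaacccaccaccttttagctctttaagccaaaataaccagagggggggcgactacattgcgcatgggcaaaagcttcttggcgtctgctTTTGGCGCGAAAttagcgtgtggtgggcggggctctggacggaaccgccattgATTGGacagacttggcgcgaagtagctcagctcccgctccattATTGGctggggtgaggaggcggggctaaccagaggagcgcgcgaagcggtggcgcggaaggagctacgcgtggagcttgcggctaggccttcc

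The CHR letters stand near the start in all 4 of the promoters from the higher genes, at -16 in Cdk1 (with another at -72), -22 in Top2a, -4 in Bub1b and 4 in Ttk. The Cdc25b and Mcm6 windows do not hold these letters. Mcm6 instead holds 2 overlapping E2F words, at -139 and -135. Over the 36 members, CHR letters occur in 14 (38.9%), CCAAT in 22 (61.1%) and an E2F word in 8 (22.2%). Over all 27457 promoters in the table these shares are 18.2%, 37.7% and 2.20%.

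By array number the motifs were found on both sides. CHR letters occur in 6 of 12 promoters of members apart and higher on number 2, in 2 of 10 of those apart and lower and in 3 of 9 of those overlapping. For CCAAT the counts are 7, 4 and 6, and for the E2F words 2, 3 and 2. Matches are letters in a window and were not tested for binding.

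Several probes were tested for 16 members. Of these, 4 had probes with both signs between the numbers (Cdkn1a, Mcm4, Plk1 and Racgap1) and 10 had both signs with testosterone. Probes over 1 log2 unit apart occurred in 1 member in either comparison, Racgap1.

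**Figure D4:**
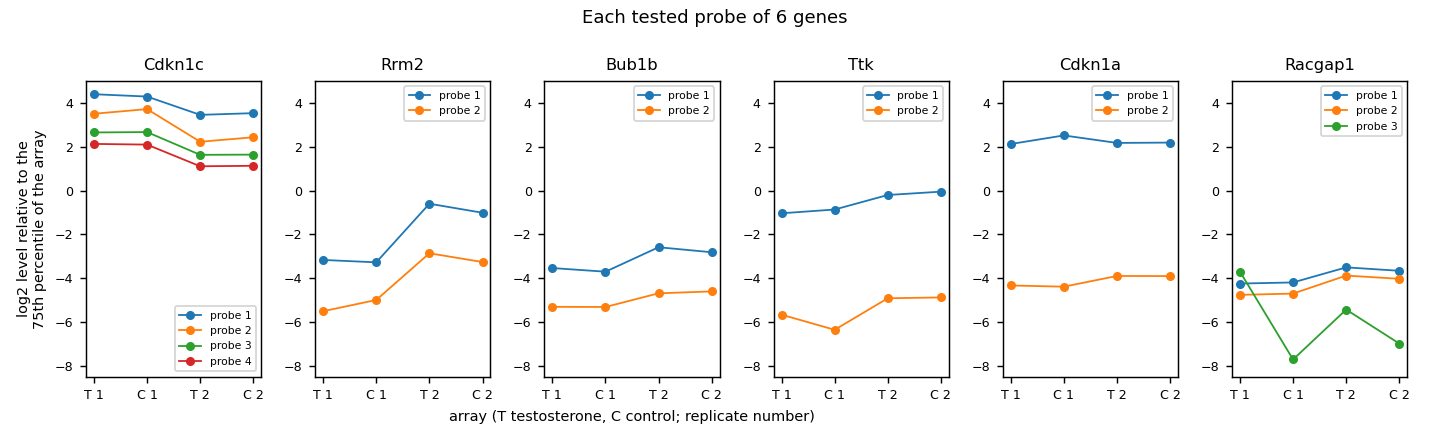
Level of every tested probe of 6 members on each array, in log2 units relative to the 75th percentile of the array, 1 line a probe, with T for testosterone, C for control and the replicate number. The 4 lines of Cdkn1c step down on number 2 (differences from -1.28 to -0.85) and both of Rrm2 step up (2.42 and 2.19), while the third line of Racgap1 does not follow the other two.

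Each treatment group holds its own pair of numbers, and each number its own pair of treatments. The number difference had the same sign in the testosterone pair and the control pair for 32 of 43 members (74.4%), against 71.7% of all genes. The testosterone difference had the same sign on number 1 and number 2 for 23 of 43 (53.5%), against 43.8% of all genes. Across the 43 members, which are not independent replicates and share arrays, the number differences of the pairs correlated at 0.64, or 0.86 without Cdk1. The testosterone differences correlated at -0.00, or 0.20 without Cdk1. Over all genes tested, with no gene removed, the number differences correlated at 0.52 and the testosterone differences at -0.07.

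The other genes of these pathways are given for 140 genes in 3 lists, 123 with a probe and 109 tested. Among 34 tested mitotic genes, 22 were apart and higher on number 2 and 4 apart and lower (median 0.48). Of the 34, 6 passed the filter only through the number 2 arrays and were bound to read higher there, and without them 16 of 28 were apart and higher and 4 lower (median 0.39). Over all genes left after the same step and without saturated probes the shares were 37.3% higher and 24.9% lower. Espl1, separase, read -5.28 and -4.77 on number 1 and -2.81 and -3.35 on number 2, a difference of 1.95 (1.04 to 2.85; adjusted p = 0.0994 in limma). Pttg1, securin, which holds separase back, differed by 1.02 (0.40 to 1.64). Hmmr, a spindle-associated hyaluronan receptor, differed by 1.09 (-0.34 to 2.51), with testosterone replicate 2 at -0.17 and the other arrays between -2.14 and -1.67.

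Lower in the same list were Ncapd2, a condensin subunit, at -0.60, Cenpa, the centromeric histone, at -0.33, and Ndc80, a kinetochore protein, at -0.25. Knstrn, a kinetochore adaptor named after its values were seen, was not well above background on either number 1 array. By the bound used for Ccnb2, which ignores the spread between arrays, the readings of Knstrn were at least 2.06-fold higher on number 2. It entered the test only through the arrays where it is high, so its p is not given as support. Of the 34, 18 were apart and higher and 8 lower when scaled by the median, where all genes gave 23.2% and 40.4%. After normexp and quantile normalization they were 18 and 6, where all genes gave 28.1% and 32.8%. The 34 include the 6 that passed the filter only through number 2.

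Of 34 tested replication genes, 7 were apart and higher on number 2 and 17 apart and lower (median -0.14), where all genes gave 40.1% and 24.0%. Dnmt1, the maintenance DNA methyltransferase, read -1.08 and -0.89 on number 1 and -2.31 and -1.89 on number 2, a difference of -1.11 (-1.57 to -0.65; adjusted p = 0.0913 in limma). Pola2, a DNA polymerase alpha subunit, differed by -0.91 and Pole, DNA polymerase epsilon, by -0.71. Higher were Gins3, of the GINS helicase complex, by 0.94, Orc1, of the origin recognition complex, by 0.80 and Pola1, the polymerase alpha catalytic subunit, by 0.44. With median scaling 2 were apart and higher and 27 lower, where all genes gave 23.2% and 40.4%. After normexp and quantile normalization they were 3 and 20, where all genes gave 28.1% and 32.8%.

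Control and checkpoint genes, 41 tested, gave 11 apart and higher and 14 apart and lower (median 0.05), where all genes gave 40.1% and 24.0%. The median changed sign to -0.15 with median scaling and to -0.06 with normexp and quantile normalization. E2f3 differed by 0.78, Gadd45b, a growth arrest gene, by 0.72 and Brca2, a DNA repair gene, by 0.37. Lower were Sesn1, a p53 target, at -0.80, Cul1, the scaffold of SCF ubiquitin ligases, at -0.65 and Ccng1, cyclin G1, at -0.36. With testosterone none of the 109 genes was called, and 5 were apart and higher and 9 lower, near the background of 5.78% and 8.68%. For description only, Orc6 differed by 0.24, Btg1, an antiproliferative gene, by 0.17, Ccnc, cyclin C, by 0.14 and Kif18a, a kinesin, by 0.12. Gins2 differed by -0.30, Spag5, a spindle protein, by -0.21, Cdkn2d, p19, by -0.20, Mdm2, the p53 ligase, by -0.16 and Rbl2, p130, by -0.14.

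**Figure D5:**
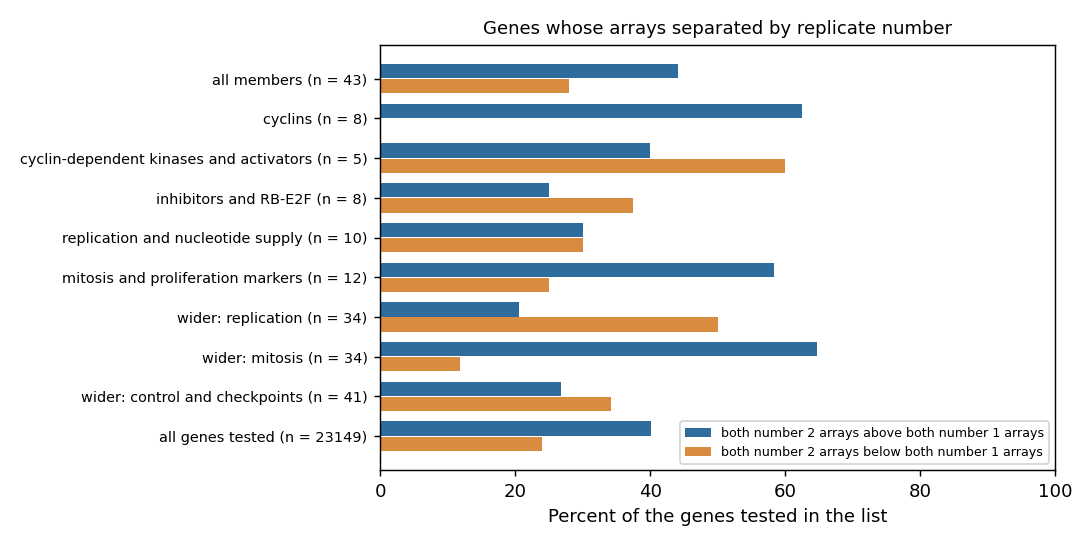
Percentage of tested genes in each role and wider list, and among all genes tested, for which both number 2 arrays lay above (or below) both number 1 arrays. Wider mitotic genes are above in 22 of 34, 6 of the 34 having passed the filter only through number 2, and wider replication genes below in 17 of 34, where all genes give 40.1% above and 24.0% below.

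Markers of other cell types moved with the array number too, and their part in the division gene differences was not tested. Of 10 tested germ cell markers, 7 were apart and higher on number 2 and 0 lower, where all genes gave 40.1% and 24.0%. Of the 7, 3 (Sycp1, Sycp3 and Prm2) passed the filter only through the number 2 arrays, and without them 4 of 7 were apart and higher. The mean level of the 10 was -4.51 and -4.63 on number 1 and -2.25 and -2.42 on number 2. That mean includes the 3, which were bound to read higher on number 2. The median difference of the remaining 7 was 2.87. Tnp1, Tnp2 and Prm1, the spermatid nuclear proteins, were higher by 4.70, 4.86 and 2.87 (adjusted p = 0.0459, 0.0459 and 0.0460 in limma). With median scaling, the authors' deposited values or no filter on dim probes limma called 0 genes on the array, these 3 included. Ddx4, a general germ cell marker, overlapped, with control replicate 1 at -7.59. Sycp1 and Sycp3, meiotic genes of the synaptonemal complex, were not well above background on number 1. By the bound used for Ccnb2, which ignores the spread between arrays, their readings were at least 1.78-fold and 2.75-fold higher on number 2.

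Other somatic markers ran both ways. Leydig cell markers were apart and lower on number 2 in 6 of 7 tested, with mean levels of 0.06 and 0.21 on number 1 and -0.32 and -0.31 on number 2. Those means include Hsd17b3, which passed the filter only through number 1. Without Hsd17b3, 5 of 6 were apart and lower and 1 higher. Macrophage and leukocyte markers were lower in 6 of 8, with means of 1.68 and 1.67 on number 1 and 1.37 and 1.43 on number 2. After leaving out saturated probes and those detected only on 1 number, 4 of 7 peritubular markers were apart and higher and 2 lower, and 2 of 4 fibroblast markers higher and 0 lower. Sertoli cell markers were higher in 3 and lower in 2 of 6, and endothelial markers higher in 3 and lower in 1 of 5. All genes left by the same step gave 37.3% higher and 24.9% lower. In RNA from a whole culture, fewer cells of a type and less RNA per cell cannot be told apart.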

How the data were processed

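The authors' scanner files, written by Feature Extraction 11.5.1.1 per the file headers (version 10.5 in the submitters' processing notes for Agilent Feature Extraction), give each spot's processed signal as an intensity, with positions in rn4. The deposited series table holds the authors' log2 values, which equal the log2 processed signal minus a constant for each array (8.79 and 8.63 for testosterone and control replicate 1, 8.38 and 8.55 for replicate 2), over 40749 probes. Column medians were -3.61, -3.62, -3.34 and -3.45 in that order.

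Values here are log2 processed signals minus the 75th percentile of each array. Control spots were dropped and the spots of a probe averaged. Spots flagged as outliers were left out of that average unless every spot of the probe on the array was flagged. In that case their mean was kept, so a flagged reading stayed in for the 40749 probes printed once. Of 41012 probes, 27138 were well above background on at least 2 of 4 arrays and gave 23149 genes. The filter did not use the group or the number, but a gene can pass it through 1 side alone. Of the genes tested, 839 entered only through number 2 and 72 only through number 1, which tilts the counts towards higher on number 2. Probes were named through the GRCr8 gene table by accession (10796), symbol (5240) or older symbol (3460). For 21516 the file's own name was used.

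Both comparisons were fitted with limma 3.58.1 in R 4.3.3, two-sided, with Benjamini-Hochberg adjustment over all genes, and tested on simulated data. The number comparison had testosterone as a term, which leaves 1 residual degree of freedom. The alternatives were other scalings, filters and probe rules, the area of columns 57 to 85 left out, each array left out and a replicate block. Slide and scan were shared by all arrays and could not be tested. Every member is named. Values per array are given for fixed core genes and for up to 5 members a direction with the largest differences that were apart, and from each other list up to 3 genes a direction, of which 1 that the rule takes is not reported here. Members and lists were chosen with earlier results of these data known. The number of arrays limits the precision.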

Additional observations from a re-analysis of the deposited data

How the results depend on the processing

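The alternatives kept the direction of Rrm2 and of the other members called or at least 2-fold apart between the numbers, apart from those lost to a filter or an area. The count of 19 members apart and higher and 12 lower on number 2 stayed within 1.5 times with all 4 arrays kept, and ran from 20 to 24 and 13 to 17 with 1 array left out. The 6 members at least 2-fold higher were 3 with median scaling, 2 with normexp and quantile normalization, and 13 at 1.5-fold, and leaving out 1 array gave 4 to 5. The 1 at least 2-fold lower was 2 with median scaling or the mean over probes, 3 at 1.5-fold, and 0 with normexp and quantile normalization or without columns 57 to 85 (0 to 1 with 1 array left out). Members apart with testosterone, 3 each way, were 6 lower with median scaling, and 7 to 18 higher and 11 to 15 lower with 1 array left out, where 3 arrays part more easily.

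Over all genes, the 152 called higher and 9 lower on number 2 in limma were 0 and 0 with median scaling, the authors' values or no filter on dim probes. They were 785 and 187 with no testosterone term, 611 and 182 with a stricter filter (probes well above background on every array), and 276 and 28 without columns 57 to 85. Lower calls were 71 with normexp and quantile normalization and 14 with the mean over probes. With no testosterone term Ccna2, Cdk6, Cdkn1c, Mcm6 and Ube2c were called too, and with the stricter filter Ube2c, Cdk6, Cdc25b, Ccna2, Top2a and Bub1b. The 1545 genes at least 2-fold higher and 241 lower were 3733 and 1097 at 1.5-fold, and 2457 and 706 with no filter. With normexp and quantile normalization they were 255 and 51. The stricter filter gave 760 higher, leaving out the columns 895 higher and median scaling 484 lower. With 1 array left out they ran from 1393 to 2415 and 330 to 454. With 3 arrays the fit with the testosterone term has no residual degree of freedom. Without the term, an alternative chosen after seeing the data, limma called 758 higher and 52 lower without testosterone replicate 1, 400 and 28 without control replicate 1, and 0 and 0 without replicate 2 of testosterone or control, where Rrm2 was not called (adjusted p = 0.125 and 0.0919). The lone array of a number was then assumed to vary like the pair.

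The 125 genes at least 2-fold higher and 33 lower with testosterone were 300 and 113 at 1.5-fold, 545 and 252 with no filter, 21 and 0 after normexp and quantile normalization, 29 and 4 with the stricter filter, and 22 and 16 without the columns. They ran from 138 to 949 and 127 to 560 with 1 array left out. Limma called 0 with testosterone throughout, except 9 higher without control replicate 2, where the spread comes from the testosterone pair alone and the lone control is assumed to vary alike. The share of higher genes among those apart was 40.0%, and 25.7% with median scaling and 35.7% with the authors' values. The cause of these shifts was not tested. With the replicate number as a block limma called 0 genes for testosterone, with 584 at an unadjusted p under 0.05, 0 of them members. Deviations of same-numbered arrays correlated at 0.586 across 20791 genes, but 2 pairs without a label for the number were not treated as paired. Dim members near background are limited by signal, and every result by 4 arrays.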
